A study of Macaca mulatta with 5 samples.

Results

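The topologically associating domains (TADs) and domain boundaries of 4 gene-dense rhesus chromosomes are described here. The chromosomes are 10, 16, 19 and 20, the counterparts of human chromosomes 20 and 22 (joined in the rhesus), 17, 19 and 16. Every domain listed on them was taken, whatever its size or score. This gave 124 of the 1198 domains of the saline map and 123 of the 1244 domains of the morphine map. A boundary is the bin of 40 kb that separates adjacent domains or closes the outermost one, and these domains had 128 of 1219 boundaries in the saline map and 127 of 1265 in the morphine map. The 16 other autosomes, with 1016 and 1061 domains, served for comparison.

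The maps come from Hi-C, which crosslinks, cuts, religates and sequences chromatin so that read pairs tell which loci lay close together. The cells were neurons purified from the cortex of male rhesus macaques (Macaca mulatta) 3 to 4 years old, and the study asked how chronic morphine alters chromatin architecture. Morphine, an opioid receptor agonist, was given under the skin 3 times daily for 90 days, with single doses raised from 3 to 15 mg/kg. The control monkeys received saline on the same schedule. Each group held 2 monkeys, but the morphine group has 3 libraries and the saline group 2, so that 1 or both of its monkeys must have given several libraries. The lists name a group and no library, and each was taken as 1 pooled map. The differences below therefore have no replicate check and no p-value. Their 95% intervals describe counting error, or the spread of domains, boundaries or loops within a map, and say nothing of how monkeys vary. Neighbouring features of a chromosome are also not independent of each other.

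A TAD is a stretch of chromosome whose loci contact each other more than they contact loci outside it. Cohesin extrudes loops of chromatin and halts at sites bound by the insulator protein CTCF, and many TAD boundaries lie at such sites or at active genes. Gene-dense chromosomes tend to lie towards the interior of the nucleus and are rich in active, early-replicating chromatin. A chromatin loop appears in a Hi-C map as a spot where a pair of loci meets more often than its neighbourhood does, and most loops join loci of the same domain.

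The name gene-dense was checked against the RefSeq gene table of another rhesus assembly, used for counts per chromosome and not for coordinates. Chromosome 19 had 21.3 protein-coding genes per Mb and ranked first of the 20 autosomes. Chromosome 16 followed with 13.4, chromosome 20 with 10.5 and chromosome 10 with 9.46. Chromosome 14, which is not among the 4, had 10.2 and ranked above chromosome 10. The 4 chromosomes were thus 4 of the 5 densest autosomes, and chromosome 17 was the sparsest, with 3.39. The maps differed in contacts, and most on these chromosomes. The loops called by the authors held 119909 saline and 239042 morphine contacts, of which 25823 and 78076 were on the 4 chromosomes. No domain was assigned to a gene, and coordinates are given as the files give them, because their rhesus assembly is not named.

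Domains on the gene-dense chromosomes did not differ in size from those elsewhere beyond the intervals. Their median size was 2.06 Mb (1.72 to 2.40) in the saline map and 2.04 Mb (1.68 to 2.36) in the morphine map. The other autosomes had medians of 2.00 Mb (1.92 to 2.12) and 1.96 Mb (1.88 to 2.04). All 4 intervals overlapped, and without chromosome 20 the median of the remaining 3 was smaller than elsewhere, by a difference of -0.12 Mb with saline and -0.08 Mb with morphine. The middle 50% of the gene-dense domains ran from 1.48 to 2.92 Mb in the saline and from 1.30 to 3.02 Mb in the morphine map. Their packing was also close to that elsewhere, with 45.6 per 100 Mb of domain in both maps, against 45.7 and 47.7 on the other autosomes.

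The 4 chromosomes did not share 1 size. Chromosome 20 had the largest median of the 20 autosomes in both maps, 2.52 Mb, with intervals of 1.80 to 3.00 Mb and 1.84 to 3.04 Mb. Chromosome 10 had medians of 2.32 Mb in the saline and 2.08 Mb in the morphine map. Chromosome 16 had 1.90 and 1.84 Mb, and chromosome 19 had 1.76 and 1.86 Mb. The intervals of the 4 chromosomes overlapped, so their order is not resolved. Over the 16 other autosomes the medians ran from 1.72 Mb on chromosome 3 to 2.44 Mb on chromosome 11 in the saline map, and from 1.56 to 2.28 Mb in the morphine map. Chromosome 19 had 1 of 22 saline and 2 of 22 morphine domains under 1 Mb, and chromosome 20 had 3 of 29 and 1 of 29. Over the 4 chromosomes, 14 saline (11.3%) and 15 morphine domains (12.2%) were that small. Domains of 3 Mb or more numbered 29 (23.4%) and 34 (27.6%), against 22.0% and 19.9% on the other autosomes. The interval of the morphine difference, 7.76 percentage points (-0.51 to 16.02), included 0.

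**Figure D1:**
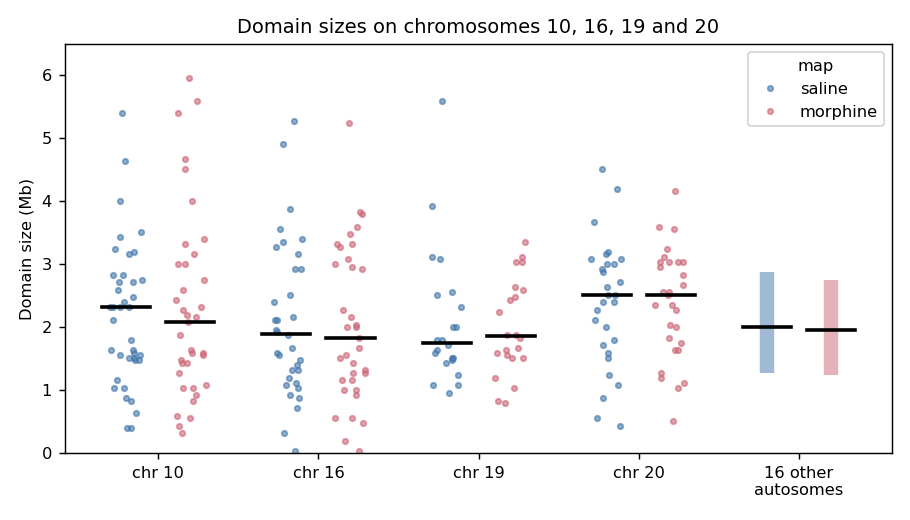
Size of each domain in Mb (vertical axis) on chromosomes 10, 16, 19 and 20, with 1 point per domain, saline in blue and morphine in red, and a black bar at each median; points are spread sideways for legibility. For the 16 other autosomes the coloured bar spans the quartiles and the black bar marks the median; the 4 chromosomes' medians run from 1.76 to 2.52 Mb around it.

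The number of domains hardly differed between the maps. Chromosome 10 had 39 domains in the saline and 37 in the morphine map, chromosome 16 had 34 and 35, chromosome 19 had 22 in both and chromosome 20 had 29 in both. The morphine over saline ratio was 0.992 (0.767 to 1.28), and on the other autosomes 1.04 (0.957 to 1.14).

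Of the 4 chromosomes, only 16 had its largest domain in nearly the same place in both maps. There it ran from 47640001 to 52920000 in the saline map (5.28 Mb) and from 47680001 to 52920000 in the morphine map (5.24 Mb). On chromosome 10 it ran from 69640001 to 75040000 (5.40 Mb) in the saline map and from 25200001 to 31160000 (5.96 Mb) in the morphine map. On chromosome 20 it ran from 42920001 to 47440000 (4.52 Mb) and from 68600001 to 72760000 (4.16 Mb). A change of rank need not be a loss. The 5.40 Mb saline domain of chromosome 10 was present in the same bins in the morphine map. The 4.16 Mb morphine domain of chromosome 20 had a saline counterpart from 68600001 to 72800000 (4.20 Mb). Chromosome 19 had a saline domain of 5.60 Mb from 40000001 to 45600000, which in the morphine map was divided, leaving a largest domain of 3.36 Mb from 40000001 to 43360000. The smallest domains were single bins of 0.04 Mb on chromosome 16, from 9560001 to 9600000 in the saline and from 61840001 to 61880000 in the morphine map. Such a bin lies between a pair of adjacent boundaries with the same score. The smallest domains of the other 3 chromosomes were at least 0.32 Mb long.

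The boundary score, a strength of unstated scale that the authors list at both ends of each domain, was not clearly higher on these chromosomes. The medians were 0.726 (0.633 to 0.865) for saline and 0.691 (0.607 to 0.788) for morphine boundaries, against 0.680 (0.653 to 0.710) and 0.650 (0.628 to 0.677) on the other autosomes. The intervals overlapped in both maps. Strong boundaries, with a score of 1 or more, were somewhat more frequent. They numbered 41 of 128 (32.0%) in the saline and 38 of 127 (29.9%) in the morphine map, against 24.3% and 20.5%. The differences were 7.71 percentage points (-0.79 to 16.2) and 9.40 points (1.08 to 17.7), so that only the second interval lay above 0.

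Chromosome 20 stood highest. It had median scores of 0.933 (0.720 to 1.20) in the saline and 0.815 (0.645 to 1.21) in the morphine map, first of the 20 autosomes in both. Chromosome 13, which belongs to the other autosomes, came next with 0.902 in the saline and 0.792 in the morphine map. Both values lay inside the intervals of chromosome 20, so its first place is not resolved. Chromosome 16 had 0.721 and 0.685, chromosome 10 had 0.661 and 0.649, and chromosome 19 had 0.629 and 0.625. The last 3 ranked between 9 and 14 of 20. Without chromosome 20, the median of the remaining 3 was below that of the other autosomes in the saline map, by -0.0067.

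The strongest boundary of each chromosome was found in both maps, in the same bin or the next. On chromosome 10 it was the bin from 58960001 to 59000000, with scores of 5.36 in the saline and 4.65 in the morphine map. It ranked number 4 of 1219 and number 5 of 1265 in the whole lists. On chromosome 20 it was the bin from 5160001 to 5200000, with 3.43 and 3.00. On chromosome 16 it lay from 55880001 to 55920000, with 3.18 and 3.12. On chromosome 19 it lay from 23120001 to 23160000 in the saline map (2.52) and 1 bin to the right in the morphine map (2.17). These were not the boundaries richest in loop ends. Within 40 kb of the bin, the chromosome 10 and chromosome 19 boundaries had 0 loop ends in both maps. The chromosome 16 boundary had 4 in the saline and 0 in the morphine map, and the chromosome 20 boundary 0 and 1.

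Boundaries on the gene-dense chromosomes were found in both maps more often than boundaries elsewhere. A boundary was counted as shared when the other map had one within 40 kb, that is in the same bin or an adjacent one. On the 4 chromosomes 93 of 128 saline boundaries were shared (72.7%, 64.1 to 80.2) and 93 of 127 morphine boundaries (73.2%, 64.7 to 80.7). Over all boundaries of the series the shares were 54.0% in the saline and 52.0% in the morphine map. On the 16 other autosomes 544 of 1032 (52.7%) and 544 of 1077 (50.5%) were shared. The gene-dense chromosomes were higher by 19.9 percentage points (11.6 to 28.2) in the saline and 22.7 points (14.5 to 31.0) in the morphine map.

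Each of the 4 chromosomes was high. Chromosome 19 had the highest share of the 20 autosomes, 18 of 23 boundaries in both maps (78.3%, 56.3 to 92.5). Chromosome 20 had 22 of 30 in both (73.3%, 54.1 to 87.7). Chromosome 10 had 29 of 40 in the saline map (72.5%) and 29 of 38 in the morphine map (76.3%). Chromosome 16 was the lowest, with 24 of 35 (68.6%) and 24 of 36 (66.7%). Chromosome 9 was the only other autosome above chromosome 16, with 70.2% and 67.8%. Chromosome 14, close to chromosome 20 in gene density, had 50.9% and 47.5%, and chromosome 17 had the lowest shares, 34.1% and 33.3%. The intervals of single chromosomes are wide, and neighbours in this order are not resolved.

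**Figure D2:**
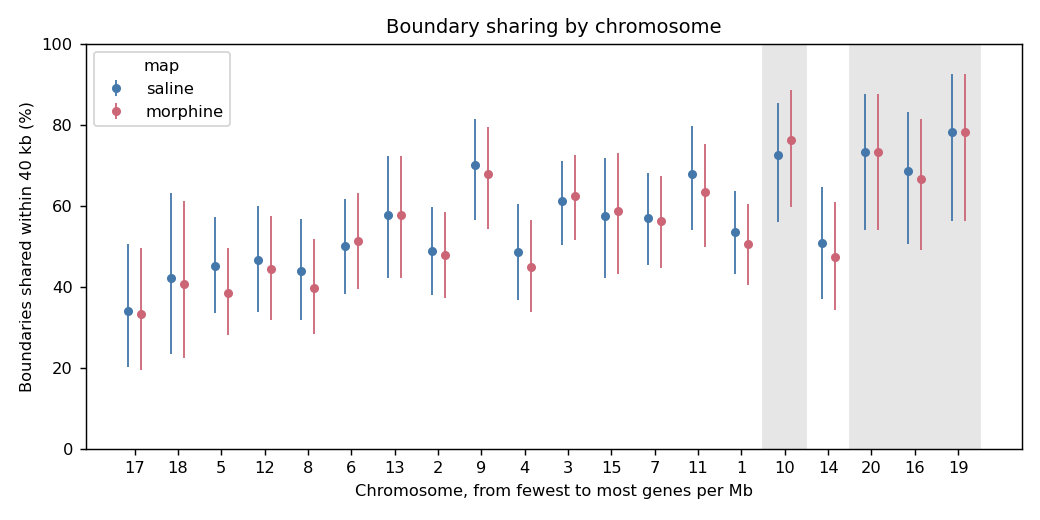
Percent of boundaries with a boundary of the other map within 40 kb (vertical axis) for the 20 autosomes, ordered from fewest to most protein-coding genes per Mb, saline in blue and morphine in red; vertical lines are exact 95% binomial intervals and grey bands mark chromosomes 10, 16, 19 and 20. The 4 marked chromosomes lie between 66.7% and 78.3%, and chromosome 14 between chromosomes 10 and 20 lies at 50.9% and 47.5%.

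Much of the excess lay in boundaries displaced by 1 bin. In the same bin were 35 pairs, 27.3% of the saline and 27.6% of the morphine boundaries, against 23.5% and 22.6% on the other autosomes. These differences of 3.80 points (-4.35 to 11.9) and 5.00 points (-3.17 to 13.2) had intervals that included 0. Displaced by 1 bin were 58 boundaries, 45.3% and 45.7%, against 29.2% and 27.9%. The displacement had no clear direction, since 31 morphine boundaries lay to the left, 27 to the right and 35 in the same bin. With a limit of 80 kb the shares were 84.4% and 85.0%, against 70.1% and 67.0%. Boundaries more than 200 kb from any boundary of the other map were few, 10 saline (7.81%) and 9 morphine (7.09%), against 13.2% and 16.9%.

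Within 40 kb the contrast was largest among strong boundaries, though its interval in each map overlapped that of a weaker class. The order of the classes is thus not resolved. Of boundaries with a score of 1 or more, 40 of 41 were shared in the saline map (97.6%, 87.1 to 99.9). In the morphine map 37 of 38 were shared (97.4%, 86.2 to 99.9). On the other autosomes 169 of 251 (67.3%) and 150 of 221 (67.9%) were shared. The differences were 30.2 points (22.7 to 37.7) and 29.5 points (21.5 to 37.5). Chromosomes 10, 16 and 19 shared all of their strong boundaries, 11, 12 and 7 in the saline and 9, 11 and 6 in the morphine map. None of the 16 other autosomes did so in either map, and the highest share among them was 84.6% in both.

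The exception lay on chromosome 20. There a saline boundary from 60040001 to 60080000 had a score of 1.20, and the nearest morphine boundary, from 59960001 to 60000000, scored 1.21 and was 80 kb away. Within 80 kb all 41 saline and all 38 morphine strong boundaries had a partner (lower limits of 91.4% and 90.7%), against 85.3% and 86.4% on the other autosomes.

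Within 40 kb, weaker boundaries showed smaller or unresolved differences. With scores from 0.5 to under 1, 35 of 56 saline (62.5%) and 41 of 56 morphine boundaries (73.2%) were shared, against 54.1% and 52.0%. The difference was 8.43 points (-4.99 to 21.9) in the saline and 21.2 points (8.83 to 33.5) in the morphine map. Under 0.5, 18 of 31 (58.1%) and 15 of 33 (45.5%) were shared, against 37.7% and 35.8%. Here only the saline difference, 20.3 points (2.10 to 38.6), excluded 0, and the morphine difference was 9.61 points (-8.18 to 27.4).

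**Figure D3:**
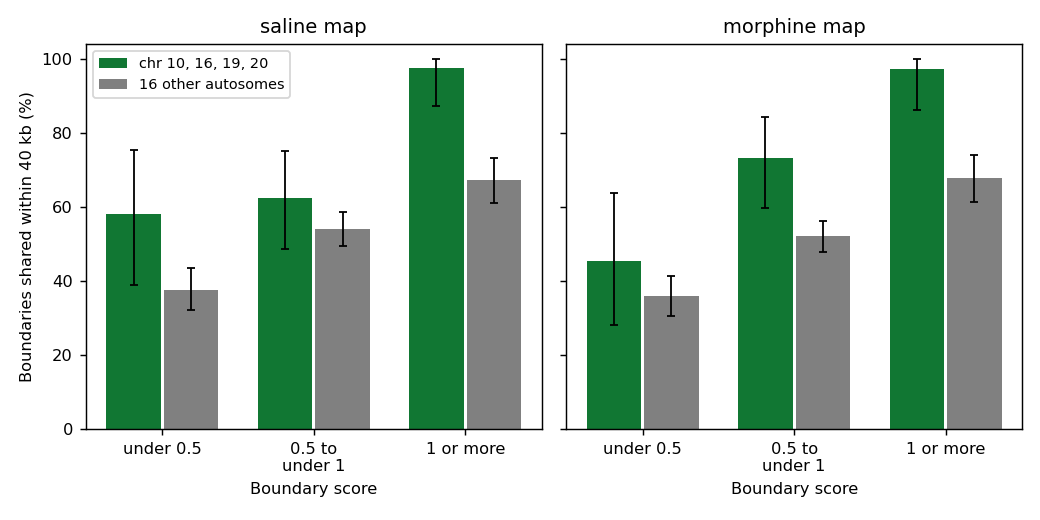
Percent of boundaries shared within 40 kb (vertical axis, from 0) by class of boundary score, for chromosomes 10, 16, 19 and 20 (green) and the 16 other autosomes (grey), with the saline map on the left and the morphine map on the right; error bars are exact 95% binomial intervals. In the highest class the green bars reach 97.6% and 97.4%, the grey bars 67.3% and 67.9%.

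Shared boundaries had higher scores than unshared ones. In the saline map the medians were 0.945 (0.720 to 1.05) for 93 shared and 0.542 (0.496 to 0.653) for 35 unshared boundaries. In the morphine map they were 0.815 (0.695 to 1.01) and 0.487 (0.375 to 0.645). The other autosomes had the same order, with 0.751 against 0.603 and 0.726 against 0.583. The gap in median score was wider on the gene-dense chromosomes, though its difference from that of the other autosomes was not tested.

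Shared boundaries of the gene-dense chromosomes often followed each other without a break. Runs on the other autosomes were not counted. Whether the runs are longer than the share of shared boundaries alone would give was not tested. The longest run was on chromosome 10, where 15 consecutive saline boundaries from 56600001 to 89560000, over 32.96 Mb, each had a morphine partner. It held the strongest boundary of the chromosome. Chromosome 16 had a run of 6 over 17.72 Mb, from 38200001 to 55920000, and in the saline map another 6 over 11.12 Mb, from 63960001 to 75080000. Chromosome 19 had 7 saline boundaries in a row over 15.36 Mb, from 30280001 to 45640000, and 6 in the morphine map, where an added boundary ended the run. Chromosome 20 had a pair of runs of 5 boundaries in each map, in the saline map from 22080001 to 30160000 (8.08 Mb) and from 62480001 to 72840000 (10.36 Mb).

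At the shared boundaries the scores of the maps were close. The Spearman rank correlation of saline and morphine scores was 0.972 over 93 boundary pairs, and 0.877 over 544 pairs of the other autosomes. By chromosome it was 0.926 on chromosome 10, 0.988 on 16, 0.981 on 19 and 0.979 on 20, while the other autosomes ran from 0.480 on chromosome 5 to 0.948 on chromosome 3. These are descriptions, since the pairs share their chromosome and their maps. The morphine score was the lower of the pair at 62 of 93 boundaries (66.7%, 56.1 to 76.1). Over the series it was lower at 58.5%, and on the other autosomes at 316 of 544 (58.1%), so the share was near the background and its interval included it. The median difference, morphine minus saline, was -0.041, against -0.031 on the other autosomes.

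Where the scores differed most, the morphine score was the lower on each of the 4 chromosomes. The chromosome 10 boundary from 58960001 to 59000000 scored 5.36 with saline and 4.65 with morphine, a difference of -0.709. The chromosome 19 boundary from 20000001 to 20040000 scored 1.61 and 1.15 (-0.464). For the chromosome 20 boundary from 5160001 to 5200000 the difference was -0.430, and for the saline boundary of chromosome 16 from 38200001 to 38240000, with a morphine partner 1 bin to the right, it was -0.258. With 1 value per map, these differences have no error. Of these, the boundaries on chromosomes 10 and 20 were also the strongest of their chromosomes.

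**Figure D4:**
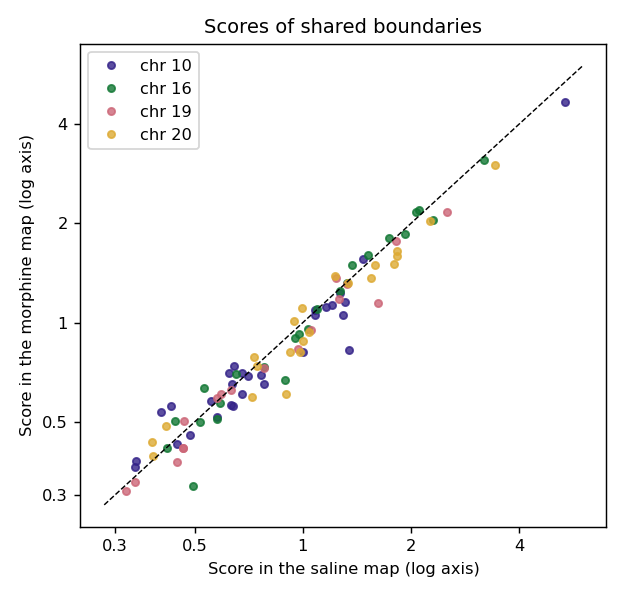
Boundary score in the morphine map (vertical axis) against the score in the saline map (horizontal axis) for the 93 boundaries shared within 40 kb on chromosomes 10, 16, 19 and 20, coloured by chromosome; both axes are logarithmic and the dashed line marks equal scores. The points follow the line (Spearman 0.972), with 62 of 93 below it.

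Whole domains were also matched more often. A domain is matched when both of its boundaries are shared, so this is not separate from the sharing of boundaries. Both ends were matched within 40 kb in 68 of 124 saline domains (54.8%, 45.7 to 63.8) and 67 of 123 morphine domains (54.5%, 45.2 to 63.5). The shares over the whole series were 31.4% and 30.4%, and on the other autosomes 29.6% and 28.6%. Of the rest, 45 saline domains had 1 matched end and 11 had none, and in the morphine map 46 had 1 and 10 had none. Chromosome 19 had no domain without a matched end in either map. By chromosome, 23 of 39 saline domains were matched at both ends on chromosome 10 (59.0%), 18 of 34 on 16 (52.9%), 13 of 22 on 19 (59.1%) and 14 of 29 on 20 (48.3%). Among the other autosomes chromosome 11 came highest in both maps, with 49.1% and 44.1%, and chromosome 17 lowest, with 7.50% and 12.2%.

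After leaving out domains with a further boundary inside, 64 domains were kept from map to map, 23 on chromosome 10, 16 on 16, 11 on 19 and 14 on 20. They covered 144 Mb, or 53.0% of the domain length of the saline map, against 26.4% on the other autosomes. The covered share was 58.6% on chromosome 10, 54.9% on 16, 48.5% on 20 and 46.3% on 19. Exact identity was rarer, since 9 of the 64 had the same bins at both ends.

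Divided domains were few. Of the 68 saline domains with matched ends, 4 held a further morphine boundary (5.88%, 1.63 to 14.4), near the 6.91% of the whole series. On chromosome 16 the domain from 16200001 to 21120000 (4.92 Mb) was split by a boundary from 19960001 to 20000000 of score 0.700. Also on chromosome 16, the domain from 67920001 to 70440000 (2.52 Mb) was split at 68400001 to 68440000, with a score of 0.844. On chromosome 19 the domains from 5960001 to 9880000 (3.92 Mb) and from 40000001 to 45600000 (5.60 Mb) were split at 9000001 to 9040000 and at 43360001 to 43400000. These boundaries scored 0.303 and 0.301, at the low end of the list, while those on chromosome 16 were above the median morphine score of 0.691.

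Merging was no more frequent. Of the 67 morphine domains with matched ends, 3 held a further saline boundary (4.48%, 0.93 to 12.5), against 7.41% in the whole series. On chromosome 16 the merged domain ran from 9680001 to 13000000 (3.32 Mb), on 19 from 23200001 to 25840000 (2.64 Mb) and on 20 from 36160001 to 37440000 (1.28 Mb). The saline boundaries inside them scored 0.518, 0.370 and 0.304. Chromosome 10 had no split and no merged domain. With a sharing limit of 20 kb, which allows the same bin only, both counts were 0.

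Domains on the gene-dense chromosomes held more loops than domains elsewhere in both maps. A loop was counted in a domain when both of its anchors lay inside. The saline domains held 999 loops, 8.06 per domain (7.56 to 8.57), and the morphine domains 1921 loops, 15.6 per domain (14.9 to 16.3). The other autosomes held 3.77 and 4.86 per domain. Per Mb of domain the gene-dense chromosomes held 3.67 and 7.12 loops, against 1.72 and 2.32. The ratios were 2.13 (1.99 to 2.29) in the saline and 3.07 (2.91 to 3.24) in the morphine map. How many loops can be called depends on contacts. The median expected contacts of loops inside domains, which come from the local background, were 5.18 here against 4.01 elsewhere in the saline map, and 9.32 against 5.47 in the morphine map. The part of this in the loop numbers was not tested.

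Chromosome 19 was the richest. Its domains held 5.13 loops per Mb in the saline and 11.1 in the morphine map, the highest values of the 20 autosomes. Chromosome 16 had 4.03 and 7.46, and chromosome 10 had 3.58 and 6.62. Chromosome 20 was the poorest of the 4, with 2.44 (2.09 to 2.84) and 4.87 (4.36 to 5.42). In the saline map chromosome 14 with 2.71 and chromosome 1 with 2.61 had higher values than chromosome 20, within its interval. In the morphine map no other autosome reached chromosome 20, and the highest was chromosome 1 with 3.84. Chromosome 20 thus had the highest median domain size and median boundary score of the 20 autosomes but the fewest loops of the 4 chromosomes.

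**Figure D5:**
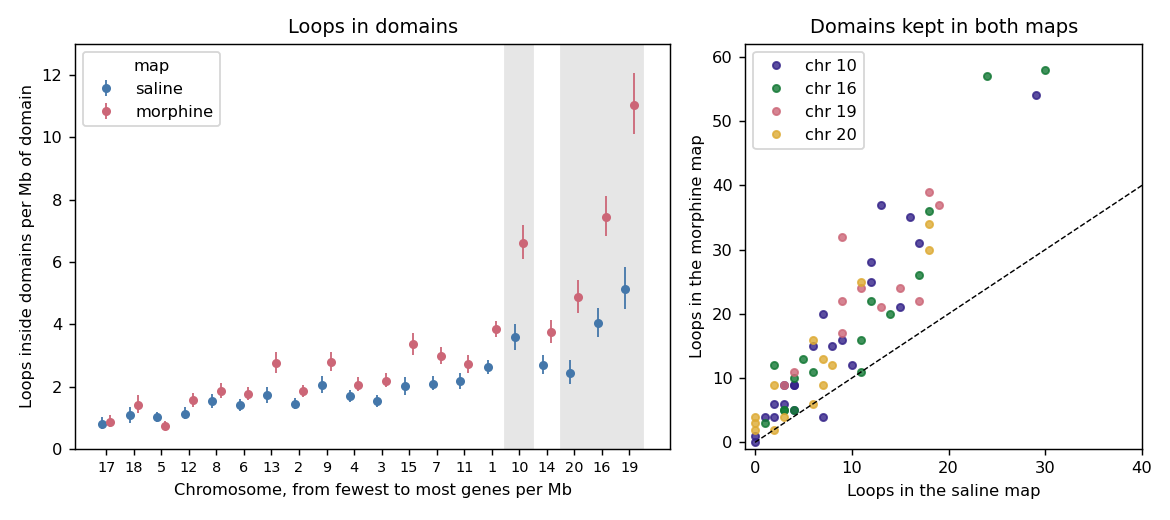
Left, loops inside domains per Mb of domain (vertical axis) for the 20 autosomes, ordered from fewest to most genes per Mb, saline in blue and morphine in red, with exact 95% Poisson intervals and grey bands on chromosomes 10, 16, 19 and 20. Right, loops in the morphine map against loops in the saline map for the 64 domains kept in both maps, coloured by chromosome, with a dashed line at equality. The marked chromosomes hold 2.44 to 11.1 loops per Mb, and 59 points lie above the line and 1 below.

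Domains with no loop were scarce. They numbered 11 of 124 in the saline map (8.87%) and 5 of 123 in the morphine map (4.07%), against 194 of 1016 (19.1%) and 227 of 1061 (21.4%) on the other autosomes. The differences were -10.2 points (-15.8 to -4.67) and -17.3 points (-21.6 to -13.1). In the morphine map chromosome 19 had 0 of 22 and chromosome 20 had 0 of 29 such domains, which allows shares of up to 15.4% and 11.9% by the exact interval. Of the 11 saline domains without a loop, 7 held morphine loops, against 57 of 194 on the other autosomes. None of the 5 morphine domains without a loop held a saline loop, against 70 of 227 on the other autosomes. Of these 5 domains 4 were under 1 Mb, against 47 of the 227. The counts on the 4 chromosomes are small, and these differences were not tested.

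Larger domains held more loops. The Spearman rank correlation of size and loop number was 0.522 over the 124 saline and 0.569 over the 123 morphine domains, against 0.269 and 0.271 on the other autosomes, given as a description over domains that share their library. The saline domain with the most loops was the one of 5.60 Mb on chromosome 19 from 40000001 to 45600000, with 36. The morphine domain with the most was on chromosome 10 from 32680001 to 38280000, with 62. On chromosome 16 the largest domain of each map also held the most loops, 30 in the saline and 58 in the morphine map. On chromosome 20 the fullest domain began at 27000001 in the saline map (18 loops) and at 26960001 in the morphine map (34 loops), and ended at 29520000 in both. The largest saline domain of chromosome 20, of 4.52 Mb, held 4.

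The excess of loops in the morphine map was larger on these chromosomes, and so was the excess of background contacts. The ratio of loops inside domains, morphine over saline, was 1.92 (1.78 to 2.08), against 1.35 (1.29 to 1.40) on the other autosomes. By chromosome it was 1.85 on 10, 1.85 on 16, 2.06 on 19 and 1.99 on 20. At 494 loops found in both maps with the same anchor size, expected contacts differed between the maps by a median factor of 2.56 (2.46 to 2.62), higher with morphine, against 1.53 (1.48 to 1.57) at 1747 loops of the other autosomes. Divided by that factor, the loop ratio was 0.751 (0.696 to 0.812), below 1, and 0.880 on the other autosomes. The direction of the loop difference thus turns with the scaling. This interval takes the factor as fixed and leaves out its own error. The division also takes loop number to rise in proportion to background contacts, which was not tested. The ratio also depended on anchor width, with 1.19 (1.06 to 1.33) for 10 kb anchors and 2.88 (2.58 to 3.22) for 5 kb anchors. Effects of morphine and of contact depth cannot be told apart in these maps.

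Loops of the morphine map were less enriched over their background. The median of observed over expected contacts for loops inside domains was 3.82 with saline and 3.09 with morphine, and 4.76 and 4.02 on the other autosomes. Loops on the gene-dense chromosomes were shorter, with median spans of 100 kb in the saline and 105 kb in the morphine map against 150 and 145 kb. Chromosome 19 had the shortest, 72.5 and 85.0 kb, and chromosome 20 had 150 kb in both maps. Chromosome 10 had 110 kb in the saline map. Single other autosomes ran there from 120 kb on chromosomes 1 and 14 to 240 kb on chromosome 17.

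The kept domains gave the same comparison over matched intervals. The 64 domains held 564 loops in the saline and 1103 in the morphine map, a ratio of 1.96 (1.77 to 2.17). The 280 kept domains of the other autosomes held 1329 and 2026, a ratio of 1.52. The morphine count was higher in 59 of the 64 (92.2%, 82.7 to 97.4), equal in 4 and lower in 1. Over the series 66.3% of kept domains were higher in the morphine map, and on the other autosomes 171 of 280 (61.1%). All 11 kept domains of chromosome 19 were higher, 21 of 23 on chromosome 10, 15 of 16 on 16 and 12 of 14 on 20. The most loops were added on chromosome 16 in the saline domain from 38240001 to 42120000, with 24 loops in the saline and 57 in the morphine map. The single lower domain was on chromosome 10 from 12560001 to 13600000, with 7 and 4. Both were singled out after their values were seen. The background contact ratio of 2.56 applies to these counts too.

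The authors list some loops of each map as differential, and these made up a larger share of the loops of the 4 chromosomes than of other loops in the morphine map and a smaller one in the saline map. In the morphine map 203 of 2261 loops were listed (8.98%, 7.83 to 10.2), against 7.09% over the series and 6.40% on the other autosomes. The difference was 2.58 points (1.25 to 3.91). In the saline map 26 of 1118 were listed (2.33%, 1.52 to 3.39), against 3.69% over the series and 3.98% on the other autosomes, a difference of -1.65 points (-2.71 to -0.59). Counted by domain the shares also rise with the loops that a domain holds. A listed morphine loop was found in most gene-dense domains. It was inside 76 of 123 domains (61.8%), against 25.8% of the domains of the series and 22.6% on the other autosomes. Chromosome 19 had 17 of 22 (77.3%), chromosome 10 had 22 of 37 (59.5%), chromosome 20 had 17 of 29 (58.6%) and chromosome 16 had 20 of 35 (57.1%). Chromosome 15 was the highest of the other autosomes, with 46.7%. A listed saline loop was inside 18 of 124 domains (14.5%), near the 13.4% of the series and the 13.8% of the other autosomes. The sources used here do not say how the authors chose these loops. The part of contacts in these lists was not tested.

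Differential loops were spread over many domains. The 171 such morphine loops inside 76 domains had a maximum of 7 in 1 domain, on chromosome 10 from 59000001 to 63680000, which held 37 loops in all and begins at the strongest boundary of the chromosome. The maximum was 6 on chromosome 20, in the domain from 39880001 to 42840000. Chromosomes 16 and 19 reached 5, in the domains from 68440001 to 70480000 and from 14760001 to 17200000. In the saline map the maximum was 4, in the chromosome 19 domain from 5960001 to 9880000 that was split in the morphine map. These domains were singled out after their values were seen.

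Boundaries had more loop ends near them, and there were more loops, but the share of loop ends that lay near a boundary was not higher beyond its interval. Within 40 kb of a boundary bin there were on average 0.984 loop ends in the saline and 1.97 in the morphine map, against 0.444 and 0.726. Boundaries without any loop end numbered 63 of 128 (49.2%) and 31 of 127 (24.4%), against 70.6% and 57.8%. Chromosome 19 had the most ends per boundary, 1.83 and 2.65. As a share of all loop ends, each counted once, those within 40 kb made up 126 of 2236 (5.64%) in the saline and 249 of 4522 (5.51%) in the morphine map, against 5.29% and 6.43% on the other autosomes. The differences were 0.34 points (-0.73 to 1.41) and -0.93 points (-1.72 to -0.13). The number of ends per boundary did not follow the score. In the saline map the mean was 1.13 for scores under 0.5, 0.821 from 0.5 to under 1 and 1.10 for 1 or more, and in the morphine map it was 1.73, 2.23 and 1.79.

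The share of loops inside domains was close to that elsewhere. In the saline map 999 of 1118 loops (89.4%) had both anchors in 1 domain, and in the morphine map 1921 of 2261 (85.0%), against 88.5% and 84.9%. The differences were 0.82 points (-1.22 to 2.87) and 0.085 points (-1.64 to 1.81). Loops from 1 domain to another made up 3.22% and 4.73%, and on chromosome 20 they reached 4.66% and 6.39%. On chromosome 19 some loops lay outside the listed domains. There 21 of 281 saline loops (7.47%) and 72 of 614 morphine loops (11.7%) lay beyond the outermost domains. This was not particular to chromosome 19. In the saline map the share was 16.1% on chromosome 17 and 8.86% on 18, against 3.54% over all the other autosomes. In the morphine map it was 10.9% on chromosome 6 and 10.2% on 5. The first listed domain of chromosome 19 begins after 3.92 Mb in the saline and after 5.96 Mb in the morphine map, and after 2.28 to 2.60 Mb on the other 3 chromosomes.

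Across the 20 autosomes, gene density went with loops and with sharing but not with domain size. Over 20 chromosomes, which share libraries and depth, protein-coding genes per Mb had a Pearson r of 0.95 and a Spearman rho of 0.96 with loops per Mb of domain in the saline map, and 0.96 and 0.94 in the morphine map. With the share of shared boundaries they were 0.72 and 0.82 in the saline and 0.70 and 0.77 in the morphine map. With median domain size they were -0.18 and 0.02 in the saline map. The ratio of background contacts had values of 0.85 and 0.86 with saline sharing, at least as high as those of gene density. Among the 16 other autosomes alone the sharing values were 0.51 and 0.71 for gene density and 0.70 and 0.76 for the background ratio. With loops per Mb the background ratio had 0.91 and 0.89 in the saline and 0.95 and 0.92 in the morphine map. The local background of loops inside domains had 0.83 and 0.91, and 0.94 and 0.98. Among the 16 other autosomes this local background had 0.80 and 0.85 with saline and 0.97 and 0.96 with morphine loops. Gene density there had 0.95 and 0.94, and 0.89 and 0.90. The part of contacts in boundary sharing and in loop numbers was not tested.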

How the data were processed

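Domains and boundary strength scores were read from the deposited domain lists, in bins of 40 kb; the scale of the score and the domain caller are not given in the sources used here. Loops were taken from the deposited loop lists, which per the file headers have the columns of the HiCCUPS caller: observed contacts (raw counts, at least 8), the expected contacts computed by the authors (a signal from 4 local backgrounds) and q-values. Library totals were not used, so the depth of each sample is unknown. Anchors are 5 or 10 kb wide. The submitters' processing notes name a human build, but positions run past its chromosome ends, so no genes or sequences were assigned.

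Boundaries were matched within 40 kb, and loops where both anchors overlapped after an extension of 10 kb. A domain was split or merged when both ends matched and the other map had a further boundary inside it, over 40 kb from both ends. Shares have Clopper-Pearson intervals, count ratios exact conditional binomial, totals exact Poisson, medians order-statistic and differences of shares normal intervals, at 95%. Scripts used Python 3.11.15, NumPy 2.4.6, SciPy 1.17.1 and pandas 2.3.3 and were tested on simulated data. Regions named are, per chromosome and map, the largest and smallest domain, the strongest boundary and the domain with most loops; every split or merged domain; and the shared boundary with the largest score difference. The members, lists and rules were chosen with earlier results of these data known. Alternatives tried were the sharing limit, the set of chromosomes compared, anchor width, a q-value limit and scaling by background contacts.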

Additional observations from a re-analysis of the deposited data

How the results depend on the processing

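Of 109 alternatives, 82 left a value within its interval (or a count within 1.5 times). Another 26 moved it beyond, and 1 reversed a direction that the interval had resolved. Some of the 82 could not change by construction. The morphine over saline loop ratio uses only the 4 chromosomes, so other reference chromosomes left it at 1.92. With the domains of 1 map used for both, the loops per Mb ratio of that map also stayed the same. Size and score differences, whose intervals include 0, changed sign in 11 alternatives: without chromosome 20, or against chromosome 18 or 13, 15, 17 and 18. The loops per Mb ratio to other autosomes (2.13 saline, 3.07 morphine) was 1.96 and 2.74 without chromosome 19, 2.37 and 3.40 without 20, 3.42 and 5.03 against chromosome 18 alone, 1.82 and 2.88 with q-values at or under 0.01, 1.84 and 1.99 for 10 kb anchors, and 2.68 and 4.33 for 5 kb anchors. Against chromosome 14 it was 1.36 and 1.90, and against 13, 15, 17 and 18 it was 2.51 (saline), references chosen after seeing the data; the morphine score difference became -0.043 against the latter. The sharing difference was 30.3 and 32.5 points against chromosome 18, and 3.80 and 5.00 points for the same bin. Without chromosome 16, or without 19, splits fell to 2; with a limit of 20 kb splits and merges were 0. The morphine over saline loop ratio of 1.92 was 1.19 for 10 kb and 2.88 for 5 kb anchors, and 0.751 after division by background contacts. Apart from what smaller or other sets give by construction, the cause was not tested. No paired analysis was possible because each list is pooled over a group, which also prevents leaving out a replicate. Contacts, unequal between the maps, limit which loops could be called; their part in boundary calls was not tested.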

Other observations

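Chromosome 14, the densest in genes after chromosomes 19, 16 and 20, had a lower share of shared boundaries, though single-chromosome intervals are wide. Of its strong boundaries, with a score of 1 or more, 7 of 11 were shared in the saline and 6 of 9 in the morphine map. The median score of its shared boundaries was the lowest of the 20 autosomes in both maps, 0.581 (0.510 to 0.898) and 0.527 (0.424 to 0.726). Its unshared boundaries had medians of 0.698 (0.452 to 0.807) and 0.676 (0.414 to 0.772), and the intervals overlapped, so no order is resolved. Its ratio of background contacts between the maps was 1.60 (1.53 to 1.71), below the 2.34 to 2.96 of chromosomes 10, 16, 19 and 20. Chromosome 14 was singled out after its values were seen.

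The median gap in score between the ends of a domain was larger on the gene-dense chromosomes. The scores at the start and the end of a domain had a median absolute difference of 0.389 (saline) and 0.376 (morphine), against 0.318 and 0.281 on the other autosomes. By saline domains it was 0.259 on chromosome 16, 0.379 on 10, 0.410 on 19 and 0.436 on 20. Chromosome 16 was thus below the other autosomes in the saline map, but not in the morphine map (0.395). Scores also spread more widely on the 4 chromosomes, with a saline upper quartile of 1.20 against 0.978. The Spearman rank correlation of start and end scores was 0.236 over their saline domains, against 0.067 on the other autosomes. The difference was not tested.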
